A study of Mus musculus with 9 samples.

Results

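The goblet cell mucus genes described here are 10 genes: Muc2, Fcgbp, Clca1, Zg16, Tff3, Tff1, Retnlb, Agr2, Spdef and Muc13. They were taken by symbol from a table of 48708 genes, and all 10 were found in it. All 10 passed the filter on low counts, which kept 16539 genes, but Tff1 passed through the WT libraries only, so that it had to differ from WT. The other 9 had reads in every library.

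The study sequenced small intestine RNA from C57BL/6 mice in acute graft-versus-host disease, a complication of transplantation in which donor immune cells injure recipient organs. There were 3 groups of 3 libraries, all labelled small intestine at postnatal week 8: Ripk3-KO (RIPK3-/-), VilCre-Ripk3fl/fl (Villin-cre, RIPK3fl/fl) and WT (wild type). Every group had the disease, so no healthy intestine stands beside these values, and the donor cells, the conditioning and the day after transplantation are not given in the sources used here. Ripk3 encodes a kinase of necroptosis, and Villin-cre deletes a floxed gene in the intestinal epithelium while other cells keep it. The labels do not say whether the WT mice carried the floxed allele or the Cre, nor whether the libraries of a group come from different animals. As the design text describes the samples as duplicated, the p-values reflect the spread among libraries alone, and that spread may be technical.

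Goblet cells are secretory cells of the intestinal epithelium that fill granules with mucin and release it as a gel over the surface. MUC2 is the polymer of that gel. It is folded in the endoplasmic reticulum with the help of AGR2, heavily decorated with O-linked glycans in the Golgi, and packed with partner proteins such as FCGBP, CLCA1 and ZG16. Trefoil peptides and the resistin-like peptide RETNLB are released with it, and the transcription factor SPDEF drives the late steps of goblet cell maturation. MUC13 differs from these in being a mucin anchored in the membrane, made by enterocytes as well as goblet cells. In mice, loss of goblet cells has been described in graft-versus-host disease of the colon.

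Total counts ran from 25375499 to 41038990 per library, and the 10 genes together took 0.754 to 0.796% of the counts in Ripk3-KO, 0.914 to 0.956% across VilCre-Ripk3fl/fl and 0.870 to 0.886% in WT. Ripk3 itself was at 3.61 ± 0.242 CPM (CPM being counts scaled to library size; SD, n = 3) in Ripk3-KO, 6.45 ± 0.911 in VilCre-Ripk3fl/fl and 113 ± 0.979 in WT, low in the libraries labelled as deleted. Several other tissues and sex moved with the groups. Summed CPM of 16 exocrine pancreas genes was 120 to 137 in Ripk3-KO, 21863 to 23413 across VilCre-Ripk3fl/fl and 2995 to 3051 in WT. Adipocyte genes summed to 6490 to 6581 CPM in Ripk3-KO, 409 to 413 across VilCre-Ripk3fl/fl and 237 to 253 in WT. Smooth muscle genes summed to 3521 to 3922 CPM in Ripk3-KO, 3057 to 3227 across VilCre-Ripk3fl/fl and 1487 to 1545 in WT. A set of 12 general epithelial markers summed to 13377 to 13628 CPM in Ripk3-KO, 13881 to 14560 across VilCre-Ripk3fl/fl and 14179 to 14382 in WT, but its members were not even: 3 were higher and 7 lower in Ripk3-KO than in WT (median log2 fold change -0.23), and 5 were higher and 3 lower in VilCre-Ripk3fl/fl (median 0.02). Krt18, a keratin of simple epithelia among them, had a mean of 169 CPM in Ripk3-KO, 219 CPM in VilCre-Ripk3fl/fl and 383 CPM in WT. Krt20, another of the 12, went the other way, with a mean of 2384 CPM in Ripk3-KO, 2327 CPM in VilCre-Ripk3fl/fl and 1982 CPM in WT. Xist, expressed in female cells, was at 272 to 283 CPM in Ripk3-KO, 7.07 to 7.90 across VilCre-Ripk3fl/fl and 6.67 to 10.6 in WT, so sex and the whole-body deletion cannot be told apart. The part of these tissues and of sex in the results was not tested, and in bulk tissue fewer goblet cells and less RNA per goblet cell cannot be told apart.

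Before the values, the promoter windows of Muc2, Agr2 and Spdef are shown because the gel mucin, its folding enzyme and the goblet cell regulator all fell in both deletions. Fcgbp also fell in both, and its window is not shown. Each window runs from 250 bases before to 50 bases after the RefSeq start site on GRCm38.p6, read 5′ to 3′ on the strand of the gene. Of the 10 genes, 5 had such a window in the RefSeq table (Muc2, Fcgbp, Agr2, Spdef and Muc13).
Muc2, chr7:141690090-141690389, plus strand: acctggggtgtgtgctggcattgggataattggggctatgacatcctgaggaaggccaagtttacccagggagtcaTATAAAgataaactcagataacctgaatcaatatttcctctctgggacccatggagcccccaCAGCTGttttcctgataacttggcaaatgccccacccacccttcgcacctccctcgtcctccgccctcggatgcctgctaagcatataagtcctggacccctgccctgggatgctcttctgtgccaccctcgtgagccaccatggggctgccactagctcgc
Agr2, chr12:35992675-35992974, plus strand: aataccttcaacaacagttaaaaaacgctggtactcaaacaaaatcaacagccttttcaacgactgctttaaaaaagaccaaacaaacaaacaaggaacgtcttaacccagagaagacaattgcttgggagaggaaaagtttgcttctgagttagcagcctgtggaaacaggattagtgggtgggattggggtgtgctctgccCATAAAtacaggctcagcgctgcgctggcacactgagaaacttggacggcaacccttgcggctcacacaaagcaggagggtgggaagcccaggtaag
Spdef, chr17:27728902-27729201, minus strand: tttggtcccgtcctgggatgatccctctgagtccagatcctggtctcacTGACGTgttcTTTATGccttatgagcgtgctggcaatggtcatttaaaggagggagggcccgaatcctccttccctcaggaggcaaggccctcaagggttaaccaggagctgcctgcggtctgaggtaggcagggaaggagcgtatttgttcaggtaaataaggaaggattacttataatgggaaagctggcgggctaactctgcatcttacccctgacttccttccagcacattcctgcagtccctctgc

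The capitals mark matches, on either strand, to 4 of the short motifs searched. In the Muc2 window CAGCTG, a 6-base form of the E-box bound by ATOH1, begins at position -112 and TATAAA, the letters of a TATA box but far from where that element lies, at -174. CAGCTG is also in the Fcgbp window, at -208. The Agr2 window holds CATAAA at -47, which is the CDX motif TTTATG on the other strand. The Spdef window holds TTTATG at -191 and TGACGT, a core shared by factors of the endoplasmic reticulum stress response, at -201. None of the windows of the 5 genes held CCGGAT (SPDEF core), TGTTTAC or TGTTTGC (FOXA), which says only that these letters are not in these windows. Such matches are common: among 32851 promoter windows of the same length, 16.3% hold CAGCTG, 11.9% TTTATG, 13.6% TATAAA and 7.51% TGACGT.

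Against WT, the 10 genes did not move as a block. Of the 9 genes other than Tff1, 6 fell and 2 rose in Ripk3-KO, and 5 fell and 3 rose in VilCre-Ripk3fl/fl. Muc2, Fcgbp, Retnlb, Agr2 and Spdef fell in both deletions, while Clca1 and Zg16 rose in both. Calls are by edgeR's quasi-likelihood test with Benjamini-Hochberg adjusted p under 0.05 over all tested genes. These counts have to be read against the whole table, in which 55.4% of genes were called in Ripk3-KO against WT (27.3% higher and 28.1% lower) and 55.6% in VilCre-Ripk3fl/fl against WT (27.2% higher and 28.4% lower). Genes lower in both deletions made up 21.2% of the table and genes higher in both 18.7%. Every library of Ripk3-KO lay on one side of all WT libraries for 8 of these 9 genes, beside 63.5% of all genes, and so did VilCre-Ripk3fl/fl for 8 of 9, beside 61.4% of all genes. The median log2 fold change of the 9 genes was -0.33 for Ripk3-KO and -0.20 for VilCre-Ripk3fl/fl, beside 0.01 for Ripk3-KO and 0.02 for VilCre-Ripk3fl/fl over all tested genes. With Tff1 counted in, the medians were -0.51 for Ripk3-KO and -0.43 for VilCre-Ripk3fl/fl. Both comparisons use the same WT libraries, so that their likeness is no independent evidence. Where libraries were scaled to the 12 epithelial markers instead, the median of all genes moved to 0.22 for Ripk3-KO and 0.08 for VilCre-Ripk3fl/fl, and the split of all calls in Ripk3-KO went to 6744 higher and 2482 lower, beside 4511 higher and 4653 lower in the reported fit. On that scale, of the 9 genes other than Tff1, Fcgbp and Tff3 were no longer called in Ripk3-KO, and Muc13 was called higher there. In VilCre-Ripk3fl/fl the calls of the 9 genes were the same as in the reported fit.

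**Figure D1:**
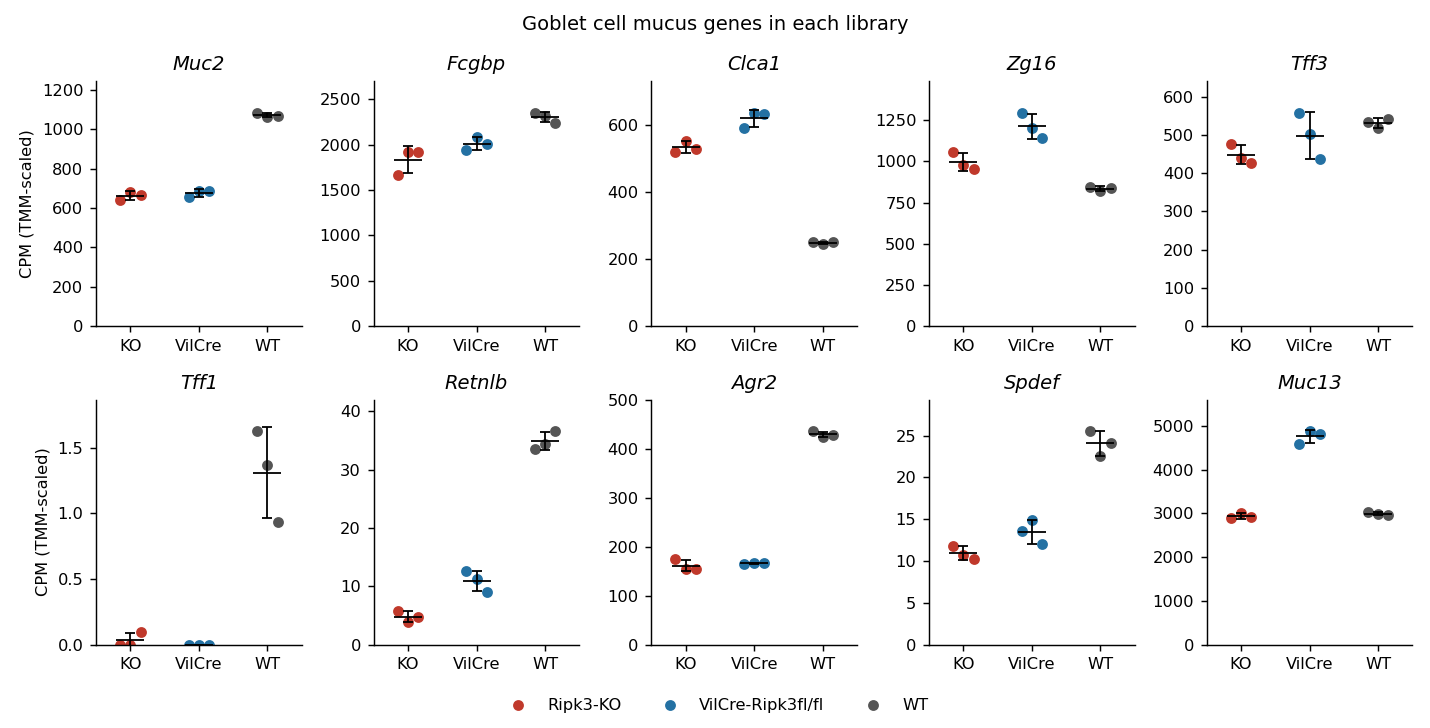
Each panel shows 1 gene, with CPM (scaled to library size, linear axis from 0) in the 3 libraries of Ripk3-KO (red), VilCre-Ripk3fl/fl (blue) and WT (grey); the bar is the mean and the whiskers the SD. Muc2, Agr2, Spdef and Retnlb lie lower in every library of both deletions than in WT, Clca1 and Zg16 lie higher, and Muc13 stands apart in VilCre-Ripk3fl/fl only.

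Among the secreted components of the gel, the polymer and 1 partner fell and 2 partners rose. Muc2 (chr7:141690340-141754693, plus strand, mm10) had 640, 683 and 665 CPM in Ripk3-KO, 654, 687 and 687 CPM in VilCre-Ripk3fl/fl and 1083, 1065 and 1070 CPM in WT. Every library of both deletions was below every WT library, and the ranges of the deletions overlapped. Muc2 fell by 0.69 on the log2 scale in Ripk3-KO (SE 0.0433, adjusted p = 5.25e-13), to 61.8% of WT. In VilCre-Ripk3fl/fl it fell by 0.67 (SE 0.0434, adjusted p = 1.57e-12), to 63.0% of WT. Between the deletions the log2 difference was -0.03, with a 95% interval of -0.12 to 0.06.

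Fcgbp (chr7:28071236-28120862, plus strand), which encodes a large protein that binds to the MUC2 network, moved less. It had 1664, 1922 and 1918 CPM in Ripk3-KO, 1940, 2087 and 2010 CPM in VilCre-Ripk3fl/fl and 2349, 2319 and 2243 CPM in WT. Both deletions lay below WT without overlap, the first Ripk3-KO library being the lowest. The fall was 0.33 on the log2 scale for Ripk3-KO (SE 0.0511, adjusted p = 5.68e-06) and 0.20 for VilCre-Ripk3fl/fl (SE 0.0511, adjusted p = 0.0022). The call in Ripk3-KO was lost with scaling to epithelial markers (log2 fold change -0.12, adjusted p = 0.0608).

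Clca1 and Zg16 went the other way. Clca1 (chr3:145003817-145032776, minus strand), a secreted metalloprotease that cleaves MUC2, had 520, 553 and 528 CPM in Ripk3-KO, 591, 635 and 632 CPM in VilCre-Ripk3fl/fl and 250, 244 and 249 CPM in WT. All 6 libraries with a deletion were above all WT libraries, and the deletions did not overlap with each other. Clca1 was 2.15-fold higher in Ripk3-KO (log2 fold change 1.11, SE 0.0456, adjusted p = 9.63e-17) and higher again in VilCre-Ripk3fl/fl (1.32, SE 0.0459, adjusted p = 3.56e-18). Zg16 (chr7:127050156-127087328, minus strand), a lectin that binds Gram-positive bacteria, had 1056, 980 and 953 CPM in Ripk3-KO, 1295, 1206 and 1141 CPM in VilCre-Ripk3fl/fl and 845, 820 and 842 CPM in WT. The 3 groups did not overlap and were ordered VilCre-Ripk3fl/fl, Ripk3-KO, WT from high to low. Its log2 fold change was 0.25 for Ripk3-KO (SE 0.0493, adjusted p = 0.000104) and 0.54 for VilCre-Ripk3fl/fl (SE 0.0495, adjusted p = 1.17e-09).

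Zg16 is also known from the zymogen granules of the pancreas, whose genes were high in VilCre-Ripk3fl/fl. In Ripk3-KO, Zg16 was above WT while all 16 pancreas genes fell against WT, their sum being 120 to 137 CPM in Ripk3-KO and 2995 to 3051 CPM in WT. How far pancreas RNA adds to Zg16 in either deletion or in WT was not tested.

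**Figure D2:**
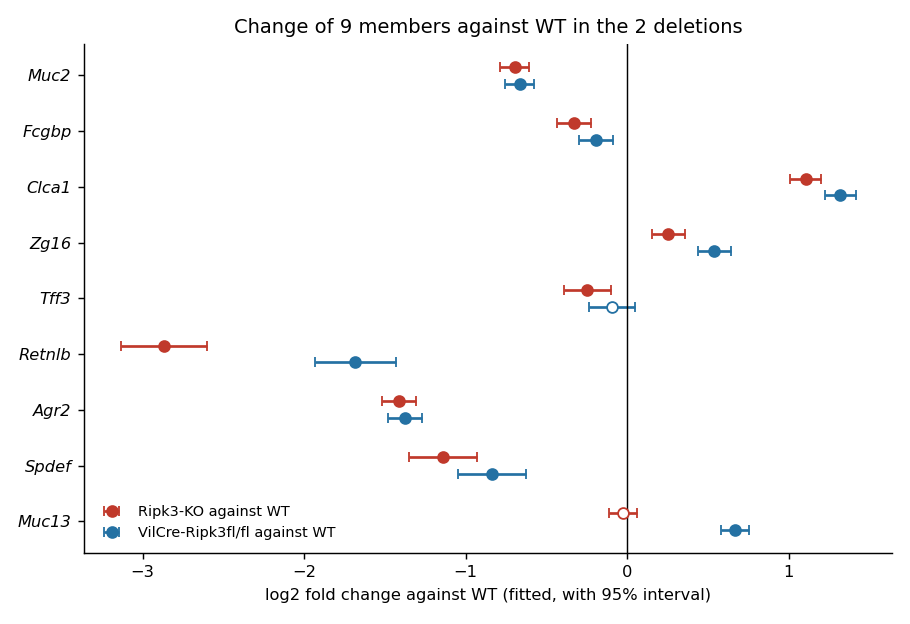
Fitted log2 fold change against WT (x axis) with its 95% interval for 9 genes, Ripk3-KO in red above VilCre-Ripk3fl/fl in blue; filled points passed the test and open points did not, and Tff1 is left out because its counts in the deletions were at or near 0. Retnlb lies farthest to the left and Clca1 farthest to the right in both, Muc13 is at -0.03 for Ripk3-KO and 0.67 for VilCre-Ripk3fl/fl, and Muc2 and Agr2 have nearly the same value in both deletions.

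The secreted peptides differed widely in level and in change. Tff3 (chr17:31125306-31129646, minus strand), the trefoil peptide of intestinal goblet cells, had 477, 441 and 427 CPM in Ripk3-KO, 558, 502 and 437 CPM in VilCre-Ripk3fl/fl and 534, 518 and 542 CPM in WT. Ripk3-KO lay below WT, whereas the VilCre-Ripk3fl/fl libraries were spread across both. Tff3 fell in Ripk3-KO (log2 fold change -0.25, SE 0.0679, adjusted p = 0.00559), a call lost with scaling to epithelial markers (-0.04, adjusted p = 0.588). In VilCre-Ripk3fl/fl the log2 fold change was -0.09, with a 95% interval of -0.24 to 0.05 (adjusted p = 0.264), but without VilCre-Ripk3fl/fl replicate 1 it was -0.18 (adjusted p = 0.00958).

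Retnlb (chr16:48816856-48818891, plus strand) encodes a peptide that kills Gram-negative bacteria and is best known from colonic goblet cells. It had 5.73, 3.86 and 4.72 CPM in Ripk3-KO, 12.5, 11.2 and 8.97 CPM in VilCre-Ripk3fl/fl and 33.6, 34.5 and 36.5 CPM in WT. The 3 groups were fully separate, with Ripk3-KO lowest and WT highest. Retnlb was 7.31-fold lower in Ripk3-KO (log2 fold change -2.87, SE 0.128, adjusted p = 1.40e-15) and 3.21-fold lower in VilCre-Ripk3fl/fl (-1.68, SE 0.122, adjusted p = 2.35e-11). Colon markers were mixed: 3 of 7 tested were higher and 2 lower in Ripk3-KO, and 5 were higher and 1 lower in VilCre-Ripk3fl/fl, their sum being 35.7 to 40.4 CPM in Ripk3-KO, 55.8 to 59.3 CPM in VilCre-Ripk3fl/fl and 41.5 to 46.9 CPM in WT.

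Tff1 (chr17:31161396-31165053, minus strand), the trefoil peptide of the stomach surface, was near the limit of detection. Its counts were 0, 0 and 4 in Ripk3-KO, 0, 0 and 0 across VilCre-Ripk3fl/fl and 54, 42 and 27 in WT. Reads were thus found in all WT libraries and in 1 library with a deletion. The ratio of scaled counts was 38.9-fold lower in Ripk3-KO than in WT, with an exact 95% interval of 14.8 to 145 for counting error only, and at least 16.4-fold lower without Ripk3-KO replicate 3. In VilCre-Ripk3fl/fl it was at least 11.3-fold lower than in WT, against a floor of 3 counts per library. As Tff1 entered the fit through its WT counts, these ratios are a description and no p is given. An antisense gene, Gm15318, shares 31.4% of the exon bases of Tff1, and since the use of strand in counting is not stated, reads of the pair cannot be told apart.

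Of the 10 stomach and Brunner gland markers 5 could be tested, of which 2 were lower and 0 higher in Ripk3-KO and 1 was lower and 2 were higher in VilCre-Ripk3fl/fl. Gkn1, a stomach surface protein, had 4, 4 and 0 counts in Ripk3-KO, 0, 0 and 4 counts in VilCre-Ripk3fl/fl and 23, 10 and 20 counts in WT, highest in WT. Muc5ac, the main stomach surface mucin, had 4, 1 and 0 counts in Ripk3-KO, 0, 2 and 0 counts in VilCre-Ripk3fl/fl and 0, 0 and 6 counts in WT, and Gkn2 had 8 counts over the WT libraries and 0 in all others. Gkn3, by contrast, had 20, 12 and 47 counts in Ripk3-KO, 20, 29 and 42 counts in VilCre-Ripk3fl/fl and 14, 6 and 19 counts in WT. Muc6, a gland mucin, had 59, 61 and 97 counts in Ripk3-KO, 32, 37 and 51 counts in VilCre-Ripk3fl/fl and 64, 55 and 41 counts in WT, so neither was highest in WT. Tff2, the trefoil peptide of stomach glands, Brunner glands and pancreas, went otherwise, with 17, 10 and 6 counts in Ripk3-KO, 1151, 1167 and 1179 counts in VilCre-Ripk3fl/fl and 126, 93 and 124 counts in WT. The part of stomach RNA in the Tff1 counts of WT was not tested.

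**Figure D3:**
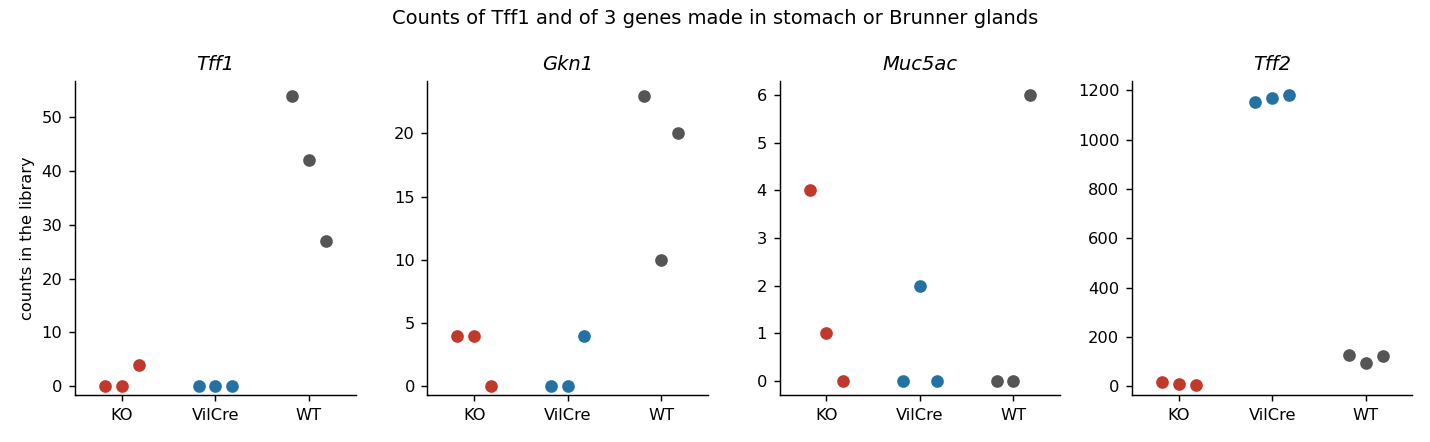
Counts per library (y axis, each panel on its own linear scale) of Tff1 and of Gkn1, Muc5ac and Tff2 in Ripk3-KO (red), VilCre-Ripk3fl/fl (blue) and WT (grey). Tff1 and Gkn1 are highest in WT, Muc5ac does not exceed 6 counts, and Tff2 is highest in VilCre-Ripk3fl/fl, at 1151 to 1179 counts.

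The folding enzyme and the regulator also fell in both deletions. Agr2 (chr12:35992907-36004087, plus strand), a disulfide isomerase without which mice make little MUC2 mucus, had 175, 154 and 155 CPM in Ripk3-KO, 164, 166 and 167 CPM in VilCre-Ripk3fl/fl and 435, 425 and 429 CPM in WT. The WT libraries stood far above both deletions, and the deletions overlapped. Agr2 was 2.66-fold lower in Ripk3-KO (log2 fold change -1.41, SE 0.0497, adjusted p = 3.24e-18) and 2.59-fold lower in VilCre-Ripk3fl/fl (-1.37, SE 0.0501, adjusted p = 1.02e-17). Between the deletions the log2 difference was -0.04, with a 95% interval of -0.14 to 0.07.

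Spdef (chr17:27714352-27728951, minus strand) had 11.8, 10.7 and 10.2 CPM in Ripk3-KO, 13.5, 14.9 and 12.02 CPM in VilCre-Ripk3fl/fl and 25.5, 22.6 and 24.1 CPM in WT. Both deletions lay below WT in every library. Spdef was 2.20-fold lower in Ripk3-KO (log2 fold change -1.14, SE 0.102, adjusted p = 6.19e-10) and also lower in VilCre-Ripk3fl/fl (-0.84, SE 0.103, adjusted p = 1.84e-07). The CDX letters TTTATG, on one or the other strand, are in the windows of Agr2 and Spdef. They are also in the Muc13 window that starts at 33793787, but not in the Muc13 window that starts at 33794239. Muc13 did not fall in either deletion. Among all promoter windows 11.9% hold these letters, and their part in the values was not tested.

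Muc13 (chr16:33794037-33819934, plus strand), the surface mucin, had a pattern of its own. It had 2886, 3005 and 2923 CPM in Ripk3-KO, 4585, 4869 and 4819 CPM in VilCre-Ripk3fl/fl and 3025, 2992 and 2956 CPM in WT. Ripk3-KO and WT overlapped, and VilCre-Ripk3fl/fl stood above both. The log2 fold change in VilCre-Ripk3fl/fl was 0.67 (SE 0.0426, adjusted p = 9.89e-13). In Ripk3-KO it was -0.03, with a 95% interval of -0.11 to 0.06 (adjusted p = 0.629), but 0.03 with upper-quartile scaling and 0.18 with scaling to epithelial markers (adjusted p = 0.000971). Muc13 carries 35.3% of the counts of the 10 genes in WT and more in the deletions. Without Muc13 the other 9 summed to 4549 to 4748 CPM in Ripk3-KO, 5095 to 5310 CPM in VilCre-Ripk3fl/fl and 5436 to 5557 CPM in WT. With Muc13 the sums were 7434 to 7753 CPM in Ripk3-KO, 9813 to 10179 CPM in VilCre-Ripk3fl/fl and 8392 to 8582 CPM in WT, so that VilCre-Ripk3fl/fl lay above WT with Muc13 and below WT without it, whereas Ripk3-KO lay below WT both ways. An antisense gene, Gm15657, shares 6.06% of the exon bases of Muc13.

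The deletions differed from each other in 6 of the 9 genes other than Tff1, all lower in Ripk3-KO. In that comparison 31.7% of all genes were called (16.6% higher and 15.1% lower). Groups did not overlap for 6 of these 9 genes, beside 40.8% of all genes. The median log2 difference of the 9, Ripk3-KO minus VilCre-Ripk3fl/fl, was -0.22, beside 0.01 over all tested genes. Tff1 was left out because its counts in both deletions were at or near 0. Retnlb differed most, at -1.19 (SE 0.135, adjusted p = 1.55e-07), with a mean of 4.77 ± 0.940 CPM in Ripk3-KO and 10.9 ± 1.79 CPM in VilCre-Ripk3fl/fl (SD, n = 3 each). Muc13 differed by -0.70 (SE 0.0426, adjusted p = 8.91e-13) and Zg16 by -0.28 (SE 0.0493, adjusted p = 6.08e-05). Clca1 differed by -0.22 (SE 0.0448, adjusted p = 0.000495), but by -0.07 (adjusted p = 0.247) with scaling to epithelial markers.

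The other 2 calls, Spdef at -0.30 (adjusted p = 0.0304) and Fcgbp at -0.13 (adjusted p = 0.048), were close to the threshold. Fcgbp was lost in 9 of 19 alternatives, including without Ripk3-KO replicate 1 (-0.07, adjusted p = 0.240), without VilCre-Ripk3fl/fl replicates 2 or 3 and without any 1 of the WT libraries, and Spdef in 6, including without Ripk3-KO replicates 2 or 3 and without VilCre-Ripk3fl/fl replicates 1 or 2. Tff3 was at -0.15 (95% interval -0.30 to -0.01, adjusted p = 0.103) and passed in 4 of 19 alternatives, 1 of them without VilCre-Ripk3fl/fl replicate 3 (-0.24, adjusted p = 0.00107). Only Retnlb, Zg16 and Muc13 remained called with scaling to epithelial markers, which moved the median of all genes between the deletions to 0.15 and the split of all calls to 4924 higher and 1132 lower, beside 2747 higher and 2497 lower in the reported fit.

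Counts of each gene per Muc2 count in the same library show the makeup of the set without any scaling between libraries. Clca1 had 0.812, 0.810 and 0.794 counts per Muc2 count in Ripk3-KO, 0.903, 0.925 and 0.920 across VilCre-Ripk3fl/fl and 0.231, 0.229 and 0.233 in WT. The ratio in WT was thus well below both deletions, and the replicates of a group hardly differed. Agr2 had a mean of 0.244 ± 0.0256 counts per Muc2 count in Ripk3-KO, 0.245 ± 0.00498 in VilCre-Ripk3fl/fl and 0.401 ± 0.00177 in WT (SD, n = 3 each). Agr2 was lower relative to Muc2 in both deletions, by nearly the same amount.

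Zg16 per Muc2 count averaged 1.51 ± 0.124 in Ripk3-KO, 1.80 ± 0.164 in VilCre-Ripk3fl/fl and 0.779 ± 0.00841 in WT. Fcgbp per Muc2 count averaged 2.77 ± 0.148 in Ripk3-KO, 2.98 ± 0.0568 across VilCre-Ripk3fl/fl and 2.15 ± 0.0449 in WT. Tff3 per Muc2 count averaged 0.678 ± 0.0584 in Ripk3-KO, 0.739 ± 0.109 across VilCre-Ripk3fl/fl and 0.496 ± 0.0103 in WT. Relative to Muc2, these partners were higher in the deletions than in WT even where, like Fcgbp, their own level fell. Spdef per Muc2 count was 0.0154 to 0.0185 in Ripk3-KO, 0.0175 to 0.0217 across VilCre-Ripk3fl/fl and 0.0212 to 0.0235 in WT, with VilCre-Ripk3fl/fl overlapping both other groups.

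**Figure D4:**
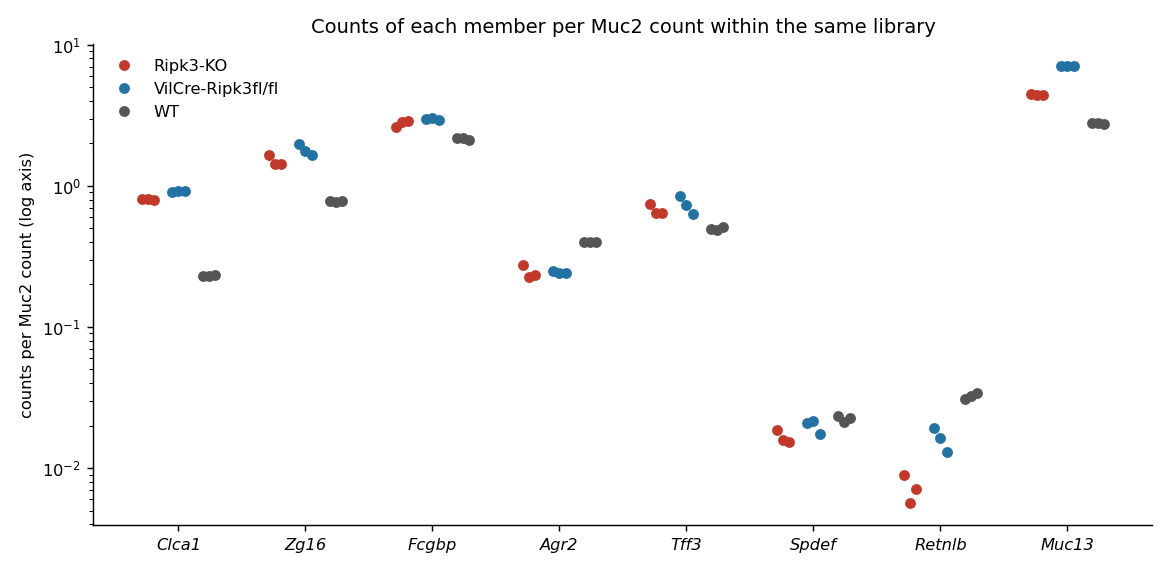
Counts of each gene divided by the Muc2 counts of the same library (log axis), 3 points per group, Ripk3-KO in red, VilCre-Ripk3fl/fl in blue and WT in grey. Clca1, Zg16, Fcgbp, Tff3 and Muc13 lie higher per Muc2 count in every library of both deletions than in WT, Agr2 and Retnlb lie lower, and Spdef overlaps between VilCre-Ripk3fl/fl and WT.

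Levels between genes were compared per transcript length, in the deposited TPM (transcript abundance per length, scaled to a fixed total). In WT the order of mean TPM was Tff3 (2656), Muc13 (2425), Zg16 (1637), Agr2 (820), Fcgbp (541), Muc2 (371), Clca1 (162), Retnlb (124), Spdef (27.1) and Tff1 (6.75), and the libraries of neighbouring genes in that order did not overlap. In Ripk3-KO the order was Muc13 (2293), Tff3 (2154), Zg16 (1877), Fcgbp (415), Clca1 (335), Agr2 (296), Muc2 (220), Retnlb (16.2), Spdef (11.8) and Tff1 (0.160), Muc13 and Tff3 overlapping. In VilCre-Ripk3fl/fl it was Muc13 (3185), Tff3 (2052), Zg16 (1961), Fcgbp (390), Clca1 (334), Agr2 (261), Muc2 (193), Retnlb (31.8), Spdef (12.5) and Tff1 (0), Tff3 and Zg16 overlapping. Agr2 thus stood above Fcgbp and Muc2 in WT and below Fcgbp and Clca1 in both deletions, and Clca1 stood below Muc2 in WT and above it in both deletions. The deposited RPKM gave the same orders, but within a library TPM and RPKM differ only by a constant factor, so this is no separate check. TPM is a share of each library, so the large pancreas share in VilCre-Ripk3fl/fl lowers all other TPM there, and TPM was not used between groups.

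The genes whose pattern over the 9 libraries was most like that of 3 of the members were taken by the smallest root mean square difference of centred log2 CPM among 13180 genes. For Muc2 these were Nolc1 (0.0362), Rcc2 (0.0405), Snd1 (0.0427), Cbfb (0.0432) and Rcc1 (0.0433). For Agr2 they were Rbm3 (0.0391), Stk39 (0.0884), Kcnk1 (0.0936), St6galnac4 (0.102) and Mmp10 (0.103), of which St6galnac4 is a sialyltransferase of O-glycans. For Clca1 they were Agmo (0.0509), Slc34a2 (0.0618), Fam234b (0.0698), Xpnpep2 (0.0707) and Nlrp9b (0.0722). Nolc1, for example, had a mean of 59.8 CPM in Ripk3-KO, 60.8 CPM in VilCre-Ripk3fl/fl and 93.1 CPM in WT.

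Beyond the 10 genes, a list of transcription factors known to act in goblet cell fate and secretion was mostly lower. Its 11 genes include Ern2, which encodes an endoplasmic reticulum stress sensor and not a transcription factor. Of the 11 genes 9 fell and 1 rose in Ripk3-KO (median log2 fold change -0.60). In VilCre-Ripk3fl/fl 8 fell and 2 rose (-0.47), and 8 were lower in both. Ern2 was among these 8, with a mean of 7.56 CPM in Ripk3-KO, 8.30 CPM in VilCre-Ripk3fl/fl and 11.4 CPM in WT. Over all tested genes 28.1% fell and 27.3% rose in Ripk3-KO, 28.4% fell and 27.2% rose in VilCre-Ripk3fl/fl, and 21.2% were lower in both. Foxa1, a forkhead factor of secretory cells, had 8.34, 6.97 and 8.33 CPM in Ripk3-KO, 11.3, 9.23 and 10.98 CPM in VilCre-Ripk3fl/fl and 21.6, 22.6 and 21.5 CPM in WT. Its log2 fold change was -1.47 for Ripk3-KO (SE 0.110, adjusted p = 1.92e-11) and -1.06 for VilCre-Ripk3fl/fl (SE 0.111, adjusted p = 1.09e-08). Both deletions were below WT in every library.

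Atoh1, the factor that commits cells to the secretory lineage, had 9.82, 8.40 and 8.67 CPM in Ripk3-KO, 4.99, 7.52 and 7.79 CPM in VilCre-Ripk3fl/fl and 15.2, 13.4 and 14.3 CPM in WT. Its log2 fold change was -0.68 for Ripk3-KO and -1.08 for VilCre-Ripk3fl/fl, both called, and it was higher in Ripk3-KO than in VilCre-Ripk3fl/fl by 0.40 on the log2 scale (adjusted p = 0.0357). Creb3l1, a factor of the secretory apparatus, fell in both, with a mean of 9.57 CPM in Ripk3-KO, 10.7 CPM in VilCre-Ripk3fl/fl and 19.1 CPM in WT. Klf4, a factor of goblet cell differentiation that villus enterocytes also make, went the other way, with a mean of 305 CPM in Ripk3-KO, 302 CPM in VilCre-Ripk3fl/fl and 197 CPM in WT, a log2 fold change of 0.63 for Ripk3-KO and 0.61 for VilCre-Ripk3fl/fl. Elf3, an epithelial ETS factor, fell in Ripk3-KO (-0.36) and rose in VilCre-Ripk3fl/fl (0.30). Of the calls in this list, those of Gfi1 for Ripk3-KO and of Foxa3 and Xbp1 for VilCre-Ripk3fl/fl were lost with scaling to epithelial markers.

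Enzymes that build mucin O-glycans split in both directions, more of them lower than higher. Of 35 listed, 33 were tested: 21 fell and 7 rose in Ripk3-KO (median log2 fold change -0.52), and 16 fell and 11 rose in VilCre-Ripk3fl/fl (-0.31). In both, 14 were lower and 6 higher, beside 21.2% of all genes lower and 18.7% higher. Over all genes 28.1% fell and 27.3% rose in Ripk3-KO, and 28.4% fell and 27.2% rose in VilCre-Ripk3fl/fl. The summed level of the list was 3377 to 3468 CPM in Ripk3-KO, 3844 to 4011 CPM in VilCre-Ripk3fl/fl and 3251 to 3270 CPM in WT. Fut2, which adds the terminal fucose of intestinal mucins, had 3.12, 3.43 and 3.92 CPM in Ripk3-KO, 10.3, 9.84 and 11.7 CPM in VilCre-Ripk3fl/fl and 37.0, 36.8 and 40.2 CPM in WT. The groups were fully separate, with a log2 fold change of -3.44 for Ripk3-KO (adjusted p = 4.71e-19) and -1.84 for VilCre-Ripk3fl/fl (adjusted p = 5.73e-14). Galnt3, which starts O-glycans on mucins, was at -1.70 for Ripk3-KO and -1.37 for VilCre-Ripk3fl/fl on the log2 scale.

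The galactosyltransferase gene B3galt5 had 16.4, 18.6 and 18.2 CPM in Ripk3-KO, 80.6, 84.5 and 93.8 CPM in VilCre-Ripk3fl/fl and 76.5, 80.4 and 73.0 CPM in WT. It fell in Ripk3-KO (log2 fold change -2.11), whereas in VilCre-Ripk3fl/fl it rose by 0.17 on the log2 scale. The sialyltransferase gene St3gal4 rose in both, with a mean of 1424 CPM in Ripk3-KO, 1645 CPM in VilCre-Ripk3fl/fl and 854 CPM in WT. Gal3st2, a galactose sulfotransferase, rose by 0.84 for Ripk3-KO and 0.70 for VilCre-Ripk3fl/fl on the log2 scale. In Ripk3-KO against WT, Galnt7, C1galt1c1, B3gnt3 and Gcnt4 lost their call with scaling to epithelial markers. Many of these enzymes are made by enterocytes too. The 12 enterocyte markers summed to 42934 to 45769 CPM in Ripk3-KO, 38801 to 43301 CPM in VilCre-Ripk3fl/fl and 24208 to 24463 CPM in WT, with 11 of 12 higher in Ripk3-KO and 10 of 12 higher in VilCre-Ripk3fl/fl, and their part in the enzyme values was not tested.

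**Figure D5:**
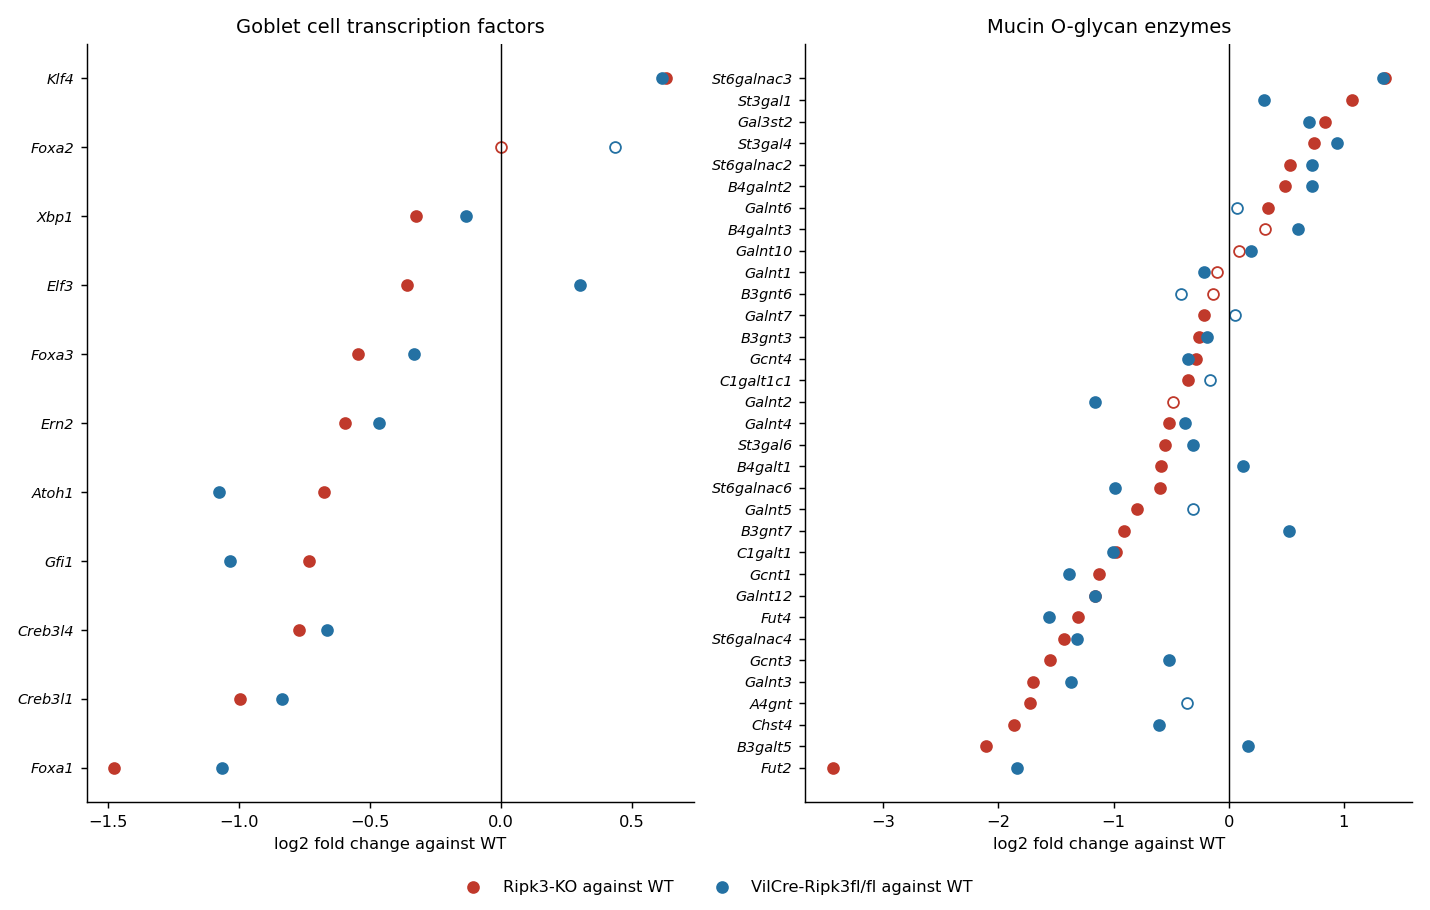
Fitted log2 fold change against WT (x axis) of the 11 genes listed with goblet cell transcription factors (left) and 33 mucin O-glycan enzymes (right). The 11 genes include Ern2, which is not a transcription factor. Genes are ordered by the value in Ripk3-KO (red), with VilCre-Ripk3fl/fl in blue. Filled points passed the test and open points did not. Foxa1 (-1.47 in Ripk3-KO, -1.06 in VilCre-Ripk3fl/fl) and Fut2 (-3.44 and -1.84) lie at the low end, and B3galt5 (-2.11 and 0.17) is far apart between the deletions.

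Other goblet cell markers were mixed. Of 17 tested, 8 fell and 4 rose in Ripk3-KO and 8 fell and 3 rose in VilCre-Ripk3fl/fl, with 6 lower and 3 higher in both. Fxyd3, an ion transport regulator, had a mean of 12.6 CPM in Ripk3-KO, 13.8 CPM in VilCre-Ripk3fl/fl and 27.6 CPM in WT and fell in both. Hgfac, a protease that activates a growth factor, was at -1.30 for Ripk3-KO and -0.62 for VilCre-Ripk3fl/fl on the log2 scale, and Bcas1 at -0.61 for Ripk3-KO and -0.91 for VilCre-Ripk3fl/fl. Scin, an actin-severing protein, had a mean of 41.6 CPM in Ripk3-KO, 29.1 CPM in VilCre-Ripk3fl/fl and 11.5 CPM in WT, with log2 fold changes of 1.85 for Ripk3-KO and 1.34 for VilCre-Ripk3fl/fl. Tuft cell markers, of another secretory cell type, summed to 77.4 to 81.5 CPM in Ripk3-KO, 99.3 to 108 CPM in VilCre-Ripk3fl/fl and 39.8 to 43.8 CPM in WT, and their part in Scin was not tested.

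Ang4, an antimicrobial ribonuclease shared by goblet and Paneth cells, had 28.9, 24.1 and 25.4 CPM in Ripk3-KO, 201, 193 and 190 CPM in VilCre-Ripk3fl/fl and 9.32, 9.99 and 7.84 CPM in WT. The groups were fully separate, with log2 fold changes of 1.53 for Ripk3-KO and 4.42 for VilCre-Ripk3fl/fl. Markers of Paneth cells, the neighbouring secretory cells of the crypt, summed to 1225 to 1420 CPM in Ripk3-KO, 3618 to 4050 CPM in VilCre-Ripk3fl/fl and 723 to 746 CPM in WT, with 9 of 11 tested higher in each deletion. The order of the groups was the same for Ang4 and the sum of the Paneth markers, but not for each marker. Mmp7 had a mean of 23.8 CPM in Ripk3-KO, 52.8 CPM in VilCre-Ripk3fl/fl and 149 CPM in WT. Pla2g2a had a mean of 5.92 CPM in Ripk3-KO, 13.9 CPM in VilCre-Ripk3fl/fl and 38.6 CPM in WT. The part of Paneth cells in Ang4 was not tested.

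Other mucins also divided. The surface mucin genes Muc3 and Muc3a, which are close relatives whose shared reads may be split between them, moved in opposite directions. Muc3 had a mean of 1077 CPM in Ripk3-KO, 1371 CPM in VilCre-Ripk3fl/fl and 868 CPM in WT, a log2 fold change of 0.31 for Ripk3-KO and 0.66 for VilCre-Ripk3fl/fl. Muc3a had 45.0, 46.9 and 47.2 CPM in Ripk3-KO, 63.3, 66.8 and 54.6 CPM in VilCre-Ripk3fl/fl and 116, 111 and 102 CPM in WT, a log2 fold change of -1.24 for Ripk3-KO and -0.84 for VilCre-Ripk3fl/fl. Muc4, another surface mucin, fell by 0.55 in Ripk3-KO and rose by 0.61 in VilCre-Ripk3fl/fl on the log2 scale.

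Signals that act on goblet cells were measured only in part. The transcripts of the cytokines Il4, Il13, Il9, Il25 and Il22 and of the receptor Il13ra2 were too low to test. Of the 7 tested genes of this list, 4 fell and 1 rose in Ripk3-KO, and 5 fell in VilCre-Ripk3fl/fl, with 4 lower in both. The gene that rose in Ripk3-KO was Il10rb, with a mean of 86.7 CPM there, 78.5 CPM in VilCre-Ripk3fl/fl and 79.3 CPM in WT. Il33, an alarmin that sets off type 2 responses, had 20.9, 21.5 and 23.2 CPM in Ripk3-KO, 20.01, 22.6 and 23.5 CPM in VilCre-Ripk3fl/fl and 56.5, 52.5 and 53.8 CPM in WT. Its log2 fold change was -1.31 for Ripk3-KO and -1.30 for VilCre-Ripk3fl/fl, with the ranges of the deletions overlapping. Il4ra, the receptor chain shared by interleukins 4 and 13, was at -1.03 for Ripk3-KO and -0.60 for VilCre-Ripk3fl/fl, and Il13ra1 at -0.43 for Ripk3-KO and -0.62 for VilCre-Ripk3fl/fl. Stat6, the factor downstream of these receptors, was at 0.05 in both (adjusted p = 0.415 for Ripk3-KO and 0.363 for VilCre-Ripk3fl/fl).

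Notch signalling turns epithelial cells away from the secretory fate. Of 8 tested genes of this pathway, 1 fell in Ripk3-KO, and 2 fell (Maml1 and Rbpj) and 2 rose (Hes1 and Notch1) in VilCre-Ripk3fl/fl. The call of Rbpj was lost with scaling to epithelial markers. Hes1, a Notch target that represses Atoh1, had a mean of 35.0 CPM in Ripk3-KO, 42.5 CPM in VilCre-Ripk3fl/fl and 31.9 CPM in WT. It rose in VilCre-Ripk3fl/fl (log2 fold change 0.41, adjusted p = 0.000182), and was at 0.14 in Ripk3-KO (adjusted p = 0.172). Jag1, a Notch ligand, was the gene that fell in Ripk3-KO (-0.27), a call that ended with upper-quartile and with epithelial scaling.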

How the data were processed

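Total RNA of mouse small intestine was sequenced in 9 libraries in 3 groups of 3, assigned from sample titles. Trimmomatic, STAR, HTSeq, DESeq2 and mm10 are named in the submitters' processing notes, and what each did, and in which version, is not given in the sources used here. Per gene, the deposited table has whole-number counts per gene, used for all tests, and the authors' deposited TPM and RPKM per library, used only to order genes. Whether counting used strand is not stated, though the labels' protocols name stranded kits. Of the table, 1 line was not analysed here.

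Counts were fitted in edgeR 4.0.16 (R 4.3.3; filterByExpr by group, 16539 genes, TMM factors 0.932 to 1.043, robust quasi-likelihood fit of all 9 libraries, 6 residual degrees of freedom, common biological coefficient of variation 0.0812). P-values are 2-sided and were adjusted by Benjamini-Hochberg, with calls at an adjusted p under 0.05. CPM were computed with TMM scaling. The floor of 3 counts was 0.0708 to 0.127 CPM per library, for counting error only. The procedure was tested on simulated data in which few genes were changed, as many up as down. That setting is unlike these data, so it does not test the scaling between libraries. Replicates of a group differed by more than sampling noise (chi-square per gene 3.57 to 12.0).

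Members and lists were chosen with earlier results of these data known. Named genes are the 10 members, Ripk3, up to 2 higher and 2 lower called genes of each pathway or paralogue list by smallest p in each comparison, a few defining genes of each context list, and the 5 genes most like Muc2, Agr2 and Clca1 with a mean CPM of at least 1. Genes named outside that rule, such as those that lost a call, were chosen after their values were seen. Alternatives were RLE and upper-quartile scaling, TMM without pancreas, adipocyte and erythroid genes, scaling to 12 epithelial markers, 2 filters, a fit of 2 groups, DESeq2 1.42.0, limma-voom (limma 3.58.1), a replicate block and leaving out each library. Counts within lists under other scalings were added after the data were seen. Exon overlap was read from GENCODE M21, and promoters from RefSeq.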

Additional observations from a re-analysis of the deposited data

Results flagged for a closer look

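In the lists around the mucus genes, 9 genes moved in opposite directions in the deletions. Each passed the threshold against WT in both deletions and between Ripk3-KO and VilCre-Ripk3fl/fl (edgeR's quasi-likelihood test). The share of all tested genes that meet this rule was not counted, so the 9 cannot be called many or few. Over all genes, 55.4% were called in Ripk3-KO against WT, 55.6% in VilCre-Ripk3fl/fl against WT and 31.7% between the deletions. Values are log2 differences, Ripk3-KO minus VilCre-Ripk3fl/fl.

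Of the mucins, Muc1 differed by -3.80 (against WT, -1.39 for Ripk3-KO, 2.41 for VilCre-Ripk3fl/fl) and Muc4 by -1.16. Muc16 differed by 4.03, from low levels, with a mean of 2.58 CPM in Ripk3-KO, 0.154 CPM in VilCre-Ripk3fl/fl and 0.612 CPM in WT. Of the glycan enzymes, B3galt5 differed by -2.28, B3gnt7 by -1.44 and B4galt1 by -0.71. Elf3 differed by -0.66. Tff2 differed by -7.30, with a mean of 0.288 CPM in Ripk3-KO, 45.2 CPM in VilCre-Ripk3fl/fl and 3.70 CPM in WT. Muc1 and Tff2 are also made in pancreas, whose 16 genes summed to 120 to 137 CPM in Ripk3-KO, 21863 to 23413 CPM in VilCre-Ripk3fl/fl and 2995 to 3051 CPM in WT. Their part in Muc1 and Tff2 was not tested.

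Clca4b, a relative of Clca1, differed by -0.58, but its fall against WT in Ripk3-KO (-0.12) was lost with upper-quartile scaling (-0.06) and turned round with scaling to epithelial markers (0.09).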

How the results depend on the processing

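The calls of Muc2, Clca1, Zg16, Retnlb, Agr2 and Spdef against WT in both deletions, and of Muc13 in VilCre-Ripk3fl/fl, kept direction and side of the threshold in all 19 alternatives each. Muc2 ranged from -0.72 to -0.49 (log2) in Ripk3-KO and -0.69 to -0.60 in VilCre-Ripk3fl/fl. Tff1 had no value with a filter of 1 CPM in 3 libraries; it passed the other filters through WT only, so its calls say nothing of stability. Scaling to epithelial markers changed most: 2482 genes were lower in Ripk3-KO against WT, 4924 were higher and 1132 lower between the deletions, and 3 members were called between them, all 3 lower. It turned round Muc13 in Ripk3-KO against WT (0.18, also 0.033 with upper-quartile scaling) and, between the deletions, Muc2 (0.11), Fcgbp (0.012) and Agr2 (0.11). The cause was not tested. Among the 9 genes other than Tff1, leaving out each library changed no call in Ripk3-KO against WT. In VilCre-Ripk3fl/fl against WT it changed only that of Tff3, which passed without VilCre-Ripk3fl/fl replicate 1. Between the deletions 4 to 6 members were called. Deviations from the group means had correlations of -0.06 to 0.17 between samples with the same replicate number. Samples with different numbers were not compared, so whether the numbers give a pairing was not settled. With a replicate block no call of the 9 genes other than Tff1 changed against WT, and 7 members were called between the deletions. Of all genes, that block called 9211 in Ripk3-KO against WT, 9247 in VilCre-Ripk3fl/fl against WT and 5371 between the deletions. DESeq2 called 9137, 9198 and 5337 genes in the same 3 comparisons. Depth limits Tff1 and Gkn1 in the deletions, and Gkn2 and Muc5ac in all groups, where counts lie near or under the floor of 3. Muc6, and Tff2 in VilCre-Ripk3fl/fl and WT, lie well above it.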

Other observations

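Relatives of the mucus genes from the same gene families were mixed. Of 11 tested paralogues, 5 rose and 4 fell in Ripk3-KO, and 7 rose and 1 fell in VilCre-Ripk3fl/fl. Clca4a, a relative of Clca1, had 821, 838 and 846 CPM in Ripk3-KO, 470, 477 and 512 CPM in VilCre-Ripk3fl/fl and 93.3, 96.9 and 97.2 CPM in WT. The groups were fully separate, with log2 fold changes of 3.12 for Ripk3-KO and 2.34 for VilCre-Ripk3fl/fl. Clca3b was at 0.39 for Ripk3-KO and 0.80 for VilCre-Ripk3fl/fl on the log2 scale. How reads shared by close relatives were counted is not stated, so values of single Clca genes are uncertain.

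Of the resistin family, Retnlb fell in both deletions while the adipocyte hormone gene Retn had a mean of 118 CPM in Ripk3-KO, 2.69 CPM in VilCre-Ripk3fl/fl and 0.810 CPM in WT. Retnla had a mean of 19.4 CPM in Ripk3-KO, 2.77 CPM in VilCre-Ripk3fl/fl and 0.298 CPM in WT. Adipocyte markers, summing to 6490 to 6581 CPM in Ripk3-KO, 409 to 413 CPM in VilCre-Ripk3fl/fl and 237 to 253 CPM in WT, were ordered the same way, and their part in Retn and Retnla was not tested. Retnlg, a neutrophil gene, was lower in both, with log2 fold changes of -2.37 for Ripk3-KO and -2.25 for VilCre-Ripk3fl/fl.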
